A study of Mus musculus with 9 samples.

Results

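The genes described here encode the non-collagenous part of the cartilage matrix, namely Acan, Hapln1, Hapln3, Comp, Matn1, Matn3, Matn4, Ucma, Cnmd and Snorc. These 10 genes were taken by name from the 55471 genes listed for each culture. All 10 passed the filter on low counts, which left 15362 genes for testing. RNA was sequenced from 9 cultures of articular chondrocytes from the knee joint surfaces of wild-type mice at postnatal day 5, in 3 groups of 3. The Control cultures received a control adenovirus, the Ad-OSCAR cultures an adenovirus carrying OSCAR (osteoclast-associated receptor, which binds collagen), and the Ad-OSCAR + 5-ASA cultures the same virus followed by 5-aminosalicylic acid. All plates, those of the Control group included, were coated with the collagen peptide COLpep, and IL-1β was not added. The sample annotations give 3 days of culture, 2 h of infection at 400 MOI and 36 h before 5-ASA. The study's methods give the same infection time, another virus dose and a shorter culture before infection, and name no interval before 5-ASA. The comparison of Ad-OSCAR with Control asks how OSCAR changes these genes, and that of Ad-OSCAR + 5-ASA with Ad-OSCAR asks what 5-ASA changes in cells that already carry the virus.

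Aggrecan, the product of Acan, is the large proteoglycan whose charged side chains hold water in cartilage. It binds hyaluronan, and the link protein encoded by Hapln1 holds that bond together, so both proteins form one aggregate. COMP and the matrilins are adaptor proteins that tie collagen fibrils and proteoglycans to each other. Ucma encodes a small secreted protein of the cartilage matrix, Cnmd encodes chondromodulin, which inhibits the growth of blood vessels into cartilage, and Snorc encodes a membrane proteoglycan of chondrocytes. Acan is a known target of SOX9, which acts with SOX5 and SOX6 in chondrocytes.

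Total counts were 19733464 to 28192769 per culture. Oscar, the gene the virus carries, had 3 to 4 counts in the Control, 173445 to 187278 in the Ad-OSCAR and 80766 to 94199 in the Ad-OSCAR + 5-ASA cultures. The chondrocyte label was checked on Col2a1, the main cartilage collagen, at 11514 to 13093 TPM (transcript abundance scaled by length and library) in the Control cultures. Of the markers of other tissues, all 4 erythroid genes and the muscle genes Myod1, Myh3 and Ckm had at most 3 counts in every culture, and summed endothelial markers never exceeded 1.37 TPM. The muscle genes Acta1 and Des reached 2.31 and 0.87 TPM. In the Control cultures, summed fibroblast markers were at 6496 to 6696 TPM and macrophage and osteoclast markers at 27.5 to 28.8 TPM. Spp1, a marker of hypertrophic chondrocytes, was at 2606 to 2969 TPM there. The check therefore does not exclude other cell types. Nothing in the sources used here says whether the cultures of a group came from separate animals, so p-values measure only the spread between these cultures.

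The positions of the genes (GENCODE M21, build GRCm38) put close relatives next to each other at Acan and at Hapln1. Acan (chr7:79053483-79115099, forward strand) ends 2 bases before Hapln3 (chr7:79115102-79131018, reverse strand) ends, so these genes run towards each other tail to tail. Hapln1 (chr13:89539796-89611652, forward strand) lies 43.7 kb from Vcan, which encodes versican, another hyaluronan-binding proteoglycan, with 0 protein-coding genes between them. Comp (chr8:70373558-70382066) has no listed relative beside it. The nearest listed genes are Ncan at 253 kb, with 14 protein-coding genes between, and Hapln4 at 283 kb, with 15 between. Neither is of the thrombospondin family, to which COMP belongs. Matn1 (chr4:130944385-130955475), Matn3 (chr12:8947929-8972028), Matn4 (chr2:164389393-164405160), Ucma (chr2:4976122-4985748), Cnmd (chr14:79637690-79662170) and Snorc (chr1:87470271-87475482) have no listed relative beside them. Whether the counting used strand is not given in the sources used here, and Matn4 overlaps Rbpjl on the opposite strand. Rbpjl had 3 to 59 counts per culture, against 171 to 2194 for Matn4, and the pseudogene Gm8546 inside Hapln1 had 0 to 4. At the facing ends of Acan and Hapln3, Acan had 42403 to 54326 counts per Control culture, against 58 to 63 for Hapln3. The effect of strand on the Hapln3 counts was not tested.

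Promoter windows from RefSeq (GRCm38.p6) matched 8 of the 10 genes, with 9 windows because Matn4 has a pair of starts. The 250 bases before the start are printed for Acan, for Hapln1, which changed least with Ad-OSCAR, and for Ucma, which changed most. Capitals mark the GC box GGGCGG, read on both strands (also as CCGCCC), which was looked for after the values were known. Neighbouring matches may overlap, and the starts of Acan and Hapln1 in RefSeq differ from those in GENCODE.
Acan, chr7:79052976-79053225, forward strand: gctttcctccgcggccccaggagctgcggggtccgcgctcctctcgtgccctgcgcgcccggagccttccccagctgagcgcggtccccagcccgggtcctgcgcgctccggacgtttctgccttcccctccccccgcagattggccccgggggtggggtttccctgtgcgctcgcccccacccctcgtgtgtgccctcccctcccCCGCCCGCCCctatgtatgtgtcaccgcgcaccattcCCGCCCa
Hapln1, chr13:89540386-89540635, forward strand: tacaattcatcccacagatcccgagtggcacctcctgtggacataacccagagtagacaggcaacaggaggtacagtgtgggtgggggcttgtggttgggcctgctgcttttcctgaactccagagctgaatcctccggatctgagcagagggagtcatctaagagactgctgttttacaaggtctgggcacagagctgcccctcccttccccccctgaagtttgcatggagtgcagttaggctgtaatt
Ucma, chr2:4975872-4976121, forward strand: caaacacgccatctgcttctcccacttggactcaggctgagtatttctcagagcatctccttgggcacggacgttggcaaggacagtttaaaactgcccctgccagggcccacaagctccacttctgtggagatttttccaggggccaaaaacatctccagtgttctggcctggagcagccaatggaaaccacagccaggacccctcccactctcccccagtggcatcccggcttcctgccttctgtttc
The Acan window was 74.4% G or C and held 26 CG dinucleotides, against a median of 52.4% and 6 over all 32851 windows of this length. The Hapln1 and Ucma windows were 54.4% and 56.4% G or C, held 2 and 4 CG dinucleotides, and had no GC box. A GC box was found in 4 of the 9 windows, those of Acan, Matn1, Matn3 and one start of Matn4, against 32.7% of all windows. The SOX letters ACAAAG and ACAATG, read on both strands and including 50 bases after the start, were in 0 of the 9 windows, against 28.6% of all, and TATAAA was in 1, that of Hapln3, against 13.6%. These are matches of letters only, and their absence from a window says nothing of what binds the gene.

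Every one of the 10 genes was lower in the Ad-OSCAR than in the Control cultures, but by very different amounts. Acan fell 83.1-fold, Ucma 297-fold and Cnmd 104-fold, whereas Hapln1, whose product is the partner of aggrecan, fell only 2.13-fold. By the adjusted p (edgeR's quasi-likelihood test, Benjamini-Hochberg, below 0.05), 10 of 10 genes fell, where 32.2% of all tested genes fell. By the study's criteria for OSCAR (a log2 fold change beyond 1.5 as well), 9 of 10 fell, all except Hapln1, where 5.39% of all tested genes fell. The median log2 fold change of the 10 genes was -6.29, against 0.02 over all genes tested. The groups did not overlap in any of the 10 genes, which was also so, in the downward direction, for 34% of all genes. In bulk RNA, fewer cells of a type and less RNA per cell cannot be told apart.

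Among aggrecan and the link proteins, Acan had 2490.1, 2232 and 2241 CPM (counts scaled to a common library size, TMM-normalised) in the Control cultures and 27.8, 29.4 and 26.6 CPM in the Ad-OSCAR cultures. The Ad-OSCAR level was thus 1.20% of the Control level (log2 fold change -6.38, standard error 0.07, adjusted p = 2.45e-21 by edgeR). Hapln1 had 505, 484 and 455 CPM in the Control and 219.9, 219 and 239 CPM in the Ad-OSCAR cultures. Its 3 Ad-OSCAR cultures all lay well above those of Acan, the reverse of the order in the Control cultures on this scale, which is not per length. The fall of Hapln1 was small but far beyond the spread between cultures (log2 fold change -1.09, standard error 0.05, adjusted p = 8.24e-13 by edgeR). Hapln3, a link protein gene with a low level here, had 2.97, 2.59 and 3.07 CPM in the Control and 0.611, 0.779 and 0.727 CPM in the Ad-OSCAR cultures. Its log2 fold change was -2.02 (standard error 0.22), on 58 to 63 counts per Control culture and 18 to 20 per Ad-OSCAR culture.

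**Figure D1:**
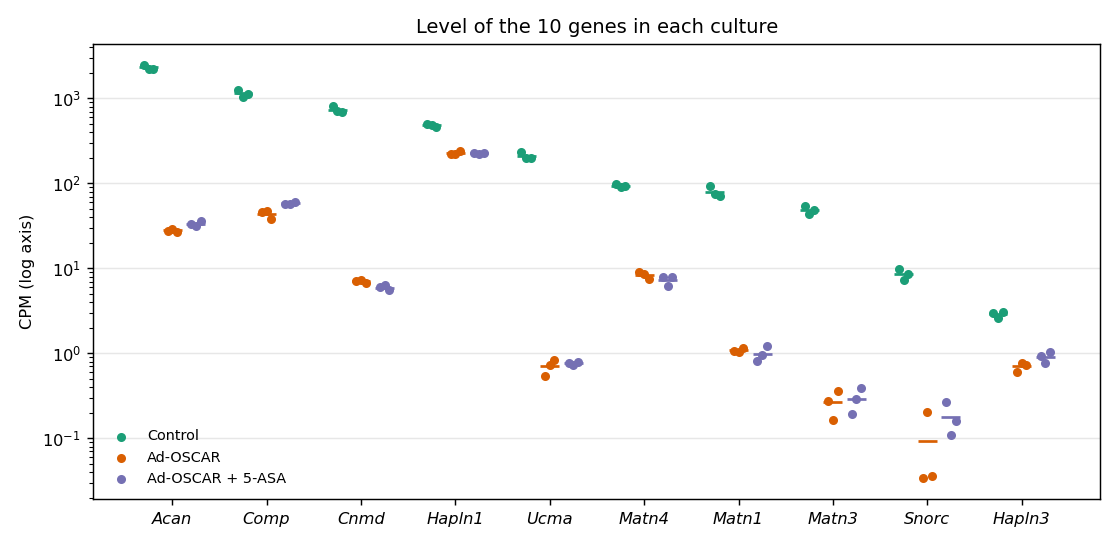
Level of the 10 genes in each culture in CPM on a log axis, ordered by the Control mean. Points are the 3 cultures of each group and bars are group means. In every gene the Control cultures lie above all others, with the smallest gap in Hapln1 (481 against 226 CPM) and the widest in Ucma (209 against 0.706 CPM).

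COMP, a member of the thrombospondin family, followed with an intermediate change. Comp had 1259, 1049 and 1119 CPM in the Control and 45.7, 47.4 and 38.1 CPM in the Ad-OSCAR cultures. The fall was 26.1-fold (log2 fold change -4.71, standard error 0.08, adjusted p = 1.69e-18 by edgeR), leaving 3.83% of the Control level.

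The matrilin genes did not fall alike. Matn2, a further matrilin gene that is not among the 10, fell from 44.1 ± 1.53 to 21.3 ± 0.708 CPM (SD, n = 3 each, log2 fold change -1.05). Matn1 had 92.2, 74.5 and 71.9 CPM in the Control and 1.05, 1.03 and 1.16 CPM in the Ad-OSCAR cultures (log2 fold change -6.19, standard error 0.13). Matn3 had 53.9, 43.8 and 48.6 CPM in the Control and 0.271, 0.164 and 0.364 CPM in the Ad-OSCAR cultures, or 4 to 10 counts per culture. Over the 3 cultures together its level was 179-fold lower, with a 95% counting interval of 118 to 287 (exact, counting error only). Matn4 had 97.1, 90.1 and 93.0 CPM in the Control and 9.06, 8.65 and 7.57 CPM in the Ad-OSCAR cultures (log2 fold change -3.47, standard error 0.07). Matn4 thus fell 11.1-fold where Matn1 fell 73.6-fold, and its 95% interval (-3.63 to -3.31) lay apart from that of Matn1 (-6.46 to -5.92). Of the summed TPM of Matn1, Matn3 and Matn4, Matn4 held 40.7 ± 2.04% in the Control and 84.1 ± 2.69% in the Ad-OSCAR cultures, Matn1 42.6 ± 2.29% and 13.7 ± 1.87%, and Matn3 16.8 ± 0.683% and 2.20 ± 0.912% (SD, n = 3 each). Matn2 is not in this sum. It was at 21.1 to 22.4 TPM in the Control and 10.2 to 11.2 TPM in the Ad-OSCAR cultures, there above Matn4 (5.58 to 6.84 TPM).

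The remaining 3 genes were among those that fell most. Ucma had 231, 197 and 199.7 CPM in the Control and 0.543, 0.738 and 0.837 CPM in the Ad-OSCAR cultures (log2 fold change -8.21, standard error 0.11, adjusted p = 3.09e-20 by edgeR). With 57 counts left over 3 cultures, the 95% counting interval of the fold was 230.2 to 394. Cnmd had 809, 715 and 685 CPM in the Control and 7.16, 7.26 and 6.77 CPM in the Ad-OSCAR cultures (log2 fold change -6.70, standard error 0.08). Snorc had 9.82, 7.35 and 8.62 CPM in the Control and 0.0339, 0.205 and 0.0364 CPM in the Ad-OSCAR cultures, which stand for 1, 5 and 1 counts. Its fall was 99.2-fold over all counts, with a counting interval of 47.8 to 248, and the log2 fold change of -6.56 became -7.74 without Ad-OSCAR replicate 2. The size of the Snorc change is therefore the least certain of the 10.

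**Figure D2:**
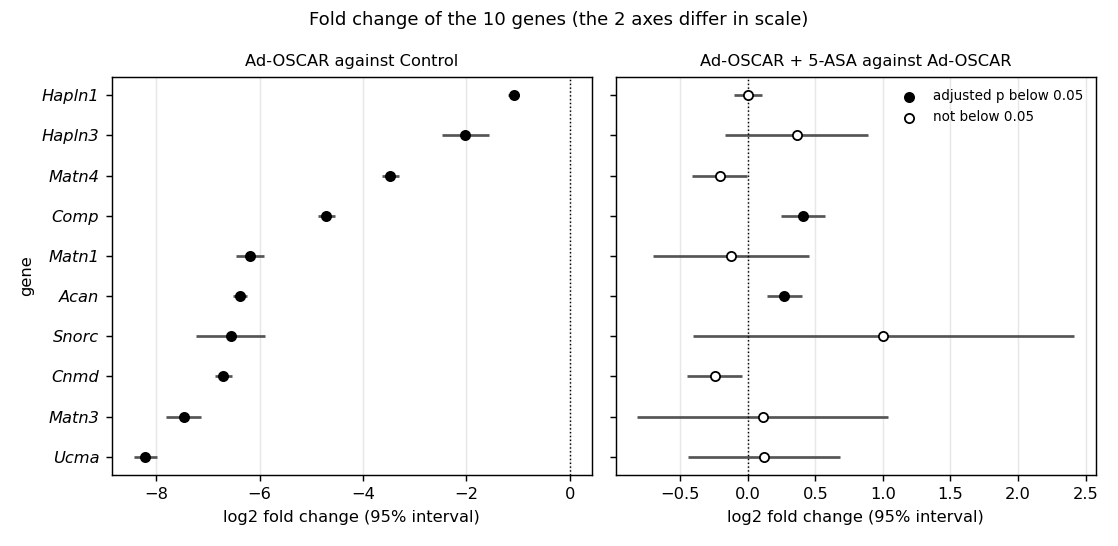
Log2 fold changes of the 10 genes with 95% intervals from edgeR, Ad-OSCAR against Control at left and Ad-OSCAR + 5-ASA against Ad-OSCAR at right, on axes of different scale. Filled points had an adjusted p below 0.05. All 10 are filled at left, from -8.21 for Ucma to -1.09 for Hapln1, and Acan (0.27) and Comp (0.41) are filled at right.

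Because TPM is scaled by transcript length, it allows the levels of different genes to be ordered. In the Control cultures the order was Cnmd (1084 ± 91.0 TPM), Comp (849 ± 77.0), Ucma (639 ± 68.1), Acan (609 ± 40.4), Hapln1 (156 ± 7.74), Matn1 (72.4 ± 9.92), Matn4 (68.7 ± 2.82), Snorc (49.5 ± 7.21), Matn3 (28.4 ± 2.85) and Hapln3 (4.63 ± 0.645, SD, n = 3 each). The ranges of Ucma and Acan overlapped, as did those of Matn1 and Matn4, and the other neighbours did not. In the Ad-OSCAR cultures Hapln1 came first at 73.2 ± 2.7 TPM, then Comp (33.0 ± 3.37), Cnmd (10.6 ± 0.426), Acan (7.61 ± 0.483), Matn4 (6.18 ± 0.633) and Ucma (2.16 ± 0.538), while the remaining 4 lay between 0.160 and 1.21 TPM on average. There, Hapln3 overlapped Matn1, Matn1 overlapped Snorc, and Snorc overlapped Matn3.

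The summed level of the 10 genes was 3387 to 3901 TPM in the Control cultures and 134 to 138 TPM in the Ad-OSCAR cultures, a 26.2-fold difference of geometric means without overlap (exact permutation test, two-sided, p = 0.1, the smallest that 3 against 3 can give). The share of Hapln1 in this sum was 4.39 ± 0.201% in the Control and 54.0 ± 2.72% in the Ad-OSCAR cultures. The share of Acan was 17.1 ± 0.459% and 5.61 ± 0.271%, and that of Cnmd 30.4 ± 0.672% and 7.79 ± 0.194%. Comp held nearly the same share in both groups, 23.9 ± 0.689% and 24.3 ± 2.17% (SD, n = 3 each).

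**Figure D3:**
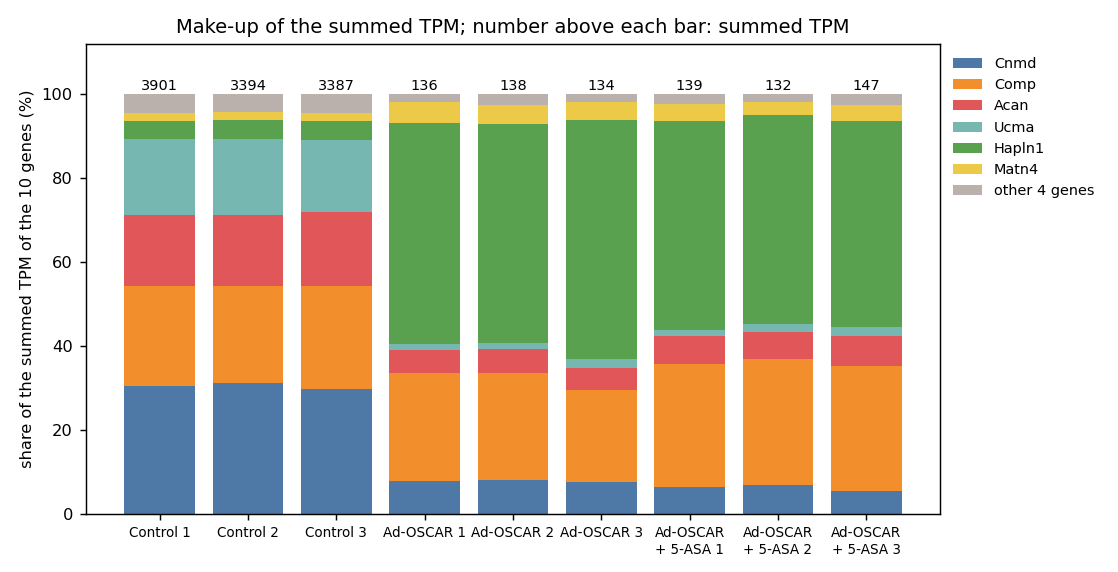
Share of each gene in the summed TPM of the 10 genes in every culture, in percent, with the summed TPM above each bar. Hapln1 holds 4.39% on average in the Control cultures and 54.0% in the Ad-OSCAR cultures, while Comp stays at 23.9% and 24.3%.

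The change of each gene relative to Acan was tested within cultures, as the log2 ratio of TPM to that of Acan with 0.1 TPM added to both. Hapln1 moved from 0.256 to 9.65 molecules per molecule of Acan (means of 3 cultures in TPM), a difference of 5.21 in the log2 ratio, and Comp from 1.39 to 4.33, a difference of 1.62. The log2 ratio was also higher by 4.45 for Hapln3 and by 2.84 for Matn4. It was lower by 1.86 for Ucma, by 0.50 for Matn3 and by 0.36 for Cnmd. In these 7 genes the groups did not overlap (exact permutation test, two-sided, p = 0.1 each, adjusted p = 0.164 over 18 ratios), while Matn1 and Snorc overlapped. The fall of Acan is so deep that 99.9% of the 15361 other tested genes were likewise apart, nearly all of them upwards. Only 4 were apart downwards, and these were Ucma, Cnmd, Matn3 and Msmp. Msmp, named after its values were seen, overlaps Rgp1 on the other strand and was at 0 counts in all 3 Ad-OSCAR cultures. With 1 TPM added in place of 0.1, Ucma and Cnmd kept their direction, but the ratios of Matn3 and Snorc were higher than in Control by 1.48 and 1.05, so their order against Acan is not settled at this depth.

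In the Ad-OSCAR + 5-ASA cultures, Hapln1, Cnmd and Matn4 stayed close to their Ad-OSCAR levels, and small rises were seen for Acan and Comp. Matn1, Matn3, Ucma, Hapln3 and Snorc were left with few counts and wide intervals, so small changes in them could not be seen. By the adjusted p, 2 of 10 genes rose, where 10.4% of all tested genes rose, and 0 fell, where 7.38% fell. In CPM the groups did not overlap in 3 of 10 genes, Acan, Comp and Cnmd, where 33.8% of all genes were apart. At an unadjusted p below 0.05 Cnmd and Matn4 were lower as well, and the share of all genes under this rule was not computed. DESeq2 also called 2 genes, where it called 2353 of 14222 genes in either direction. The study's methods describe its criteria for 5-ASA (a fold change beyond 1.5 and an unadjusted p below 0.05) for the comparison with Control. Applied here to 5-ASA against Ad-OSCAR, they were met by 0 of 10 genes, where 4.15% of all genes met them. The median log2 fold change was 0.12, against -0.004 over all genes. Oscar itself was lower with 5-ASA, at 3399 ± 404 against 6665 ± 397 CPM (SD, n = 3 each), and the part of this difference in the results with 5-ASA was not tested.

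Acan had 33.0, 31.8 and 36.1 CPM with 5-ASA, all above the 26.6 to 29.4 CPM of the Ad-OSCAR cultures. The log2 fold change was 0.27 (standard error 0.06, 95% interval 0.14 to 0.40, adjusted p = 0.00496 by edgeR), which brought Acan from 1.20% to 1.45% of its Control level. When TPM was tested with limma in place of counts, the adjusted p of Acan was 0.0505 with 0.1 TPM added and 0.0567 with 1 TPM. Comp had 57.2, 56.4 and 60.6 CPM with 5-ASA, above the 38.1 to 47.4 CPM without it. Its log2 fold change was 0.41 (standard error 0.08, 95% interval 0.25 to 0.57, adjusted p = 0.00097 by edgeR), from 3.83% to 5.09% of the Control level. Both fractions share the Control cultures as their base.

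Hapln1 had 229.5, 222 and 227 CPM with 5-ASA, within the range of the Ad-OSCAR cultures. The 95% interval of its log2 fold change ran from -0.10 to 0.10, the narrowest of the 10. Cnmd was lower in all 3 cultures with 5-ASA, at 6.0, 6.31 and 5.53 CPM against 6.77 to 7.26 CPM. Its log2 fold change of -0.24 (95% interval -0.45 to -0.04) did not pass the test (adjusted p = 0.0965 by edgeR), although it did under 3 of 18 alternatives. Matn4 had 7.81, 6.24 and 7.90 CPM with 5-ASA, and the groups overlapped (log2 fold change -0.21, 95% interval -0.41 to -0.003, adjusted p = 0.157 by edgeR). The intervals were wide in the genes left with few counts, from -0.70 to 0.45 for Matn1, from -0.82 to 1.04 for Matn3, from -0.44 to 0.68 for Ucma, from -0.17 to 0.89 for Hapln3 and from -0.40 to 2.41 for Snorc. In these 5 genes, a change of the size seen in Acan or Comp lay within the interval and was not detectable at this depth. For Snorc, 7, 3 and 4 counts with 5-ASA stood against 1, 5 and 1 without it, and the log2 fold change of 1.00 became 2.19 without Ad-OSCAR replicate 2 (adjusted p = 0.0732 by edgeR).

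Against Control, all 10 genes were lower in the Ad-OSCAR + 5-ASA cultures by the adjusted p, where 31.8% of all tested genes were lower. By the study's criteria for 5-ASA, which it applied to this comparison, 10 of 10 were also lower, where 15.3% of all genes were. Log2 fold changes ran from -8.09 in Ucma to -1.09 in Hapln1, and the groups did not overlap in any of the 10 (33.3% of all genes were apart in this direction). The summed level was 132 to 147 TPM with 5-ASA, which overlapped that of the Ad-OSCAR cultures (log2 difference 0.04, exact permutation test, two-sided, p = 0.6). Hapln1 held 49.6 ± 0.393% of it, Comp 29.8 ± 0.338% and Acan 6.68 ± 0.344% (SD, n = 3 each). Relative to Acan, Hapln1, Matn1, Matn4 and Cnmd were lower than without 5-ASA with no overlap, by 0.37, 0.49, 0.58 and 0.58 on the log2 scale, but so were 58.8% of all other tested genes.

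RSEM reports for each gene a length weighted by the estimated mixture of its transcripts. Acan has an annotated transcript of 7355 bases with 17 exons and a shorter one of 2596 bases with 7 exons (chr7:79099751-79114627), which covers the 3′ part of the gene. The weighted length was 6336 to 6615 bases in the Control, 6172 to 6555 in the Ad-OSCAR and 5736 to 6050 in the Ad-OSCAR + 5-ASA cultures. If these were the only transcripts RSEM used, the shorter one made up 18.8 ± 2.98%, 21.1 ± 4.05% and 31.0 ± 3.34% of Acan molecules (SD, n = 3 each). The cultures with 5-ASA did not overlap those without it in this estimate, which no test was fixed for. Between Ad-OSCAR + 5-ASA and Ad-OSCAR, 1 of the 10 genes, Acan, was apart in weighted length, where 8.79% of all tested genes were. Between Ad-OSCAR and Control it was also 1 of 10, Comp, by 0.37% of its length, where 13.4% of all tested genes were apart. Both counts are near these shares.

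**Figure D4:**
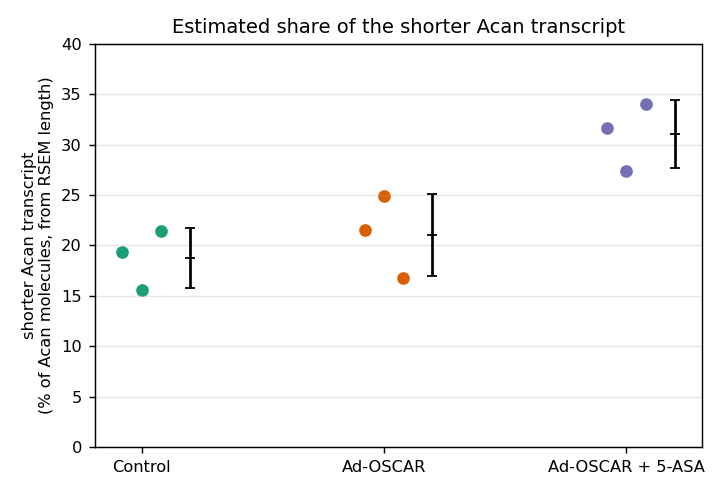
Estimated share of the shorter Acan transcript in each culture, in percent of Acan molecules, computed from the weighted length. Points are cultures, bars the mean ± SD of 3. The cultures with 5-ASA lie between 27.4% and 34.0%, above the Control (15.5% to 21.4%) and Ad-OSCAR (16.8% to 24.9%) cultures.

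The listed genes nearest to Hapln1 and Comp and the SOX factors did not share one direction. Vcan, 43.7 kb from Hapln1, had 374, 415 and 384 CPM in the Control and 1071, 954 and 1124 CPM in the Ad-OSCAR cultures, so it rose (log2 fold change 1.43, standard error 0.06) where Hapln1 fell. Hapln4, which is on the chromosome of Comp but separated from it by 15 protein-coding genes, rose (log2 fold change 2.83, standard error 0.15), from 1.63 ± 0.538 to 11.9 ± 0.913 CPM (SD, n = 3 each), and Ncan did not pass the filter on low counts. Sox9 had 339.9, 286 and 328 CPM in the Control and 39.3, 41.5 and 33.6 CPM in the Ad-OSCAR cultures and fell (log2 fold change -3.06, standard error 0.08). Sox6 (log2 fold change -1.30) and Sox8 (-2.48) fell as well, and Sox5 rose (1.02). With 5-ASA against Ad-OSCAR, Sox9 (0.24, adjusted p = 0.0414 by edgeR) and Sox6 (0.16) rose, Sox5 (-0.16) and Vcan (-0.23) fell, and Sox8 (-0.04) and Hapln4 (0.01) did not pass.

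**Figure D5:**
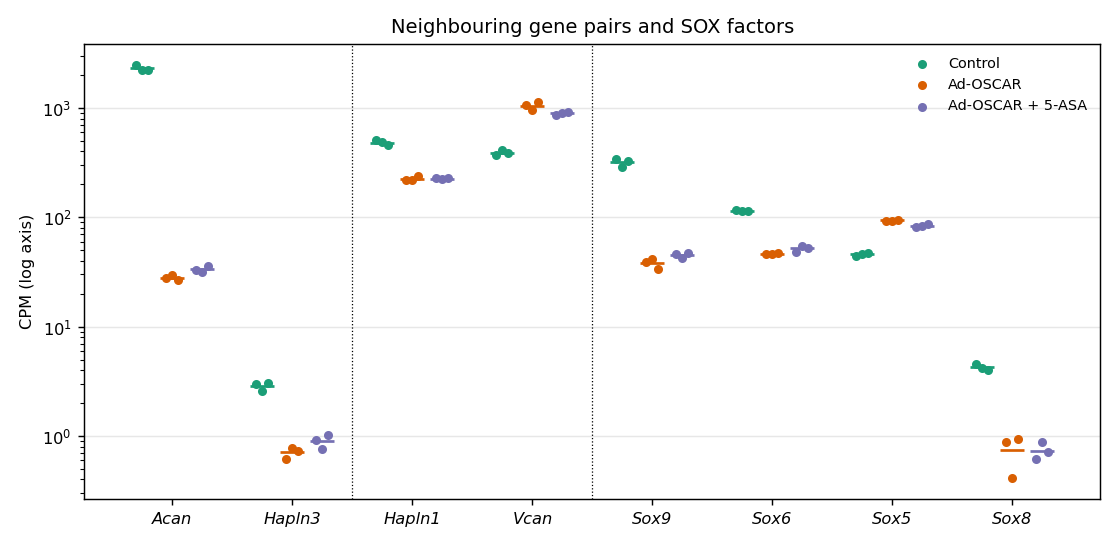
Level in each culture, in CPM on a log axis, of Acan beside its neighbour Hapln3, Hapln1 beside its neighbour Vcan, and the SOX factor genes. Points are cultures and bars are group means. Vcan and Sox5 lie higher in the Ad-OSCAR than in the Control cultures, and the other 6 lie lower.

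Other genes of the same families and of the cartilage matrix moved in both directions. Of 11 family relatives, 8 were tested, and with Ad-OSCAR 5 fell and 3 rose (median log2 fold change -1.01). Over all tested genes, 32.2% fell and 32.7% rose. Bcan, which encodes the proteoglycan brevican, fell by 3.47 on the log2 scale and Thbs4, a thrombospondin related to COMP, fell by 2.03. Of 15 other non-collagenous matrix genes, 13 were tested, 11 fell and 1 rose (median -1.50). Scrg1 (log2 fold change -3.57), Susd5 (-3.20), Vit (-3.08) and Mia (-2.94) had the lowest values, which lie between those of Acan and Hapln1. The gene that rose was Prg4, which encodes the joint lubricant lubricin, from 247 ± 7.82 to 897 ± 7.80 CPM (SD, n = 3 each). With 5-ASA against Ad-OSCAR, 3 of the 8 relatives rose and 1 fell, with the largest log2 fold change for Thbs1 (0.55), and 7 of the 13 matrix genes rose and 1 fell. Of all tested genes, 10.4% rose and 7.38% fell. Otor (1.13), Mia (1.04), Prelp (0.53) and Scrg1 (0.48) had the largest rises. The median of the 13 matrix genes was 0.41, above the 0.12 of the 10 genes, and this difference was not tested.

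The marker genes of cell types moved in both directions alongside, as did all tested genes, of which 32.2% fell and 32.7% rose with Ad-OSCAR. All 5 chondrocyte markers fell with Ad-OSCAR (summed level 12535 to 14245 TPM in the Control and 775 to 913 TPM in the Ad-OSCAR cultures), with log2 fold changes from -4.91 for Col11a2 to -3.06 for Sox9. Acan, Cnmd, Ucma, Matn1, Matn3 and Snorc fell further than these. Comp (-4.71) and Matn4 (-3.47) lay within their range, and Hapln3 (-2.02) and Hapln1 (-1.09) fell less. Of 7 fibroblast markers, 5 fell and 2 rose (6496 to 6696 and 4900 to 5405 TPM). Of 5 hypertrophic markers, 4 were tested, 3 fell and 1, Spp1, rose (2672 to 3033 and 10816 to 10917 TPM). Of 6 macrophage and osteoclast markers, Adgre1 and Ptprc had at most 3 counts everywhere, 1 fell and 2 rose (27.5 to 28.8 and 35.3 to 35.9 TPM). Of 5 endothelial markers, Cdh5 and Emcn had at most 3 counts everywhere and 1, Tek, rose. The 2 muscle markers tested did not pass, and no erythroid or adipocyte marker passed the filter. With 5-ASA against Ad-OSCAR, 3 chondrocyte, 4 fibroblast and 2 hypertrophic markers rose, where 10.4% of all tested genes rose. In the same comparison 1 fibroblast, 1 macrophage and 1 endothelial marker fell, where 7.38% fell. The part of these shifts in the levels of the 10 genes was not tested.

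The genes with profiles most like those of Acan, Comp and Hapln3 were found by the root mean square difference of centred log2 CPM over 9 cultures among 13257 genes other than the 10 described here. For Acan these were Fzd9 (0.20), which encodes a Wnt receptor, Galnt9 (0.48) and Col11a2 (0.63), which encodes a cartilage collagen chain. For Comp they were Cdsn (0.20), the non-coding RNA H19 (0.20) and Col27a1 (0.21), a cartilage collagen gene. For Hapln3 they were Cd248 (0.09), C1qtnf1 (0.10) and Rin3 (0.11). By the same measure, computed later among the 10 genes themselves, Matn1 (0.22) and Cnmd (0.36) lay nearest to Acan, Matn4 (0.51) to Comp and Hapln1 (0.40) to Hapln3.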

How the data were processed

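RNA from 9 cultures was prepared with a stranded mRNA kit and sequenced as paired reads. Per the study's methods and the labels, BBDuk was used by the authors for trimming, STAR 2.7.1a for alignment to GRCm38 and RSEM 1.3.1 for quantification. The deposited values are expected counts per gene, not scaled to a common total, with TPM and FPKM from the same run and a transcript length weighted by abundance. RSEM divides reads that match several genes, so expected counts need not be whole, and TPM changes when the estimated length changes. The strand setting is not given in the sources used here. The study's reporting summary names a further, older RSEM version for the TPM and a GENCODE release without the M of mouse releases, so the mouse release behind the files is not known. Gene names and positions are from GENCODE M21, in which 55144 of 55471 identifiers were found.

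Expected counts were rounded and tested in R 4.3.3 with edgeR 4.0.16 (TMM, filterByExpr by group, quasi-likelihood test, a single model of the 9 cultures with no covariate besides group, 6 residual degrees of freedom, common biological coefficient of variation 5.11%). The p-values were adjusted by Benjamini-Hochberg over 15362 genes. CPM are TMM-normalised. Summed TPM and ratios to Acan were compared with exact permutation tests over cultures. Counting intervals are exact at 95%, and intervals and floors cover counting error only. Promoter windows are RefSeq's. Named are the 10 genes, the SOX genes, neighbours from the listed families, up to 4 called genes per list with the largest log2 fold changes, and the 3 genes nearest in profile. The members and lists were chosen with earlier results of these data known. On simulated counts modelled on these cultures, edgeR recovered 193 of 200 changed genes, with 8 false calls. Changes as deep as the largest falls here, or as small as the 5-ASA rises of Acan and Comp, were not simulated. Alternatives were DESeq2 1.42.0, limma 3.58.1 on log2(TPM + 0.1) and log2(TPM + 1), RLE or no scaling, other filters, only the groups compared, a replicate block, summed FPKM, and leaving out each culture. Replicates of a group differed beyond sampling noise (chi-square per degree of freedom 4.25 to 8.10), so none was treated as a repeat.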

Additional observations from a re-analysis of the deposited data

How the results depend on the processing

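Over the 178 refits of single genes against Control in each of the comparisons of Ad-OSCAR and of Ad-OSCAR + 5-ASA, every gene kept its direction and its side of the adjusted p threshold. The size was less stable. With no culture left out, the Ad-OSCAR log2 fold change was as small as -1.34 for Hapln3, -5.19 for Matn1 and -4.66 for Matn3. At -1.34, Hapln3 would not meet the study's limit of 1.5. A filter of at least 10 counts in every culture left 8 of the 10 genes, since Matn3 and Snorc dropped out, and 8 then fell. Of all 13409 genes left by this filter, 4506 fell with Ad-OSCAR. With the replicate number as a block, 10 genes fell in Ad-OSCAR against Control, where 4908 of 15362 genes fell. In 5-ASA against Ad-OSCAR 2 rose, where 1482 rose, and in 5-ASA against Control 10 fell, where 4813 fell. These counts of the 10 genes were the same without the block. Differences of the summed level within replicate numbers average to the main value of -4.71 by construction, so they do not test it. The labels do not say that the numbers mark shared animals, and same-numbered cultures did not deviate together (mean correlation -0.0185, range -0.0672 to 0.0460). Of 176 refits of 5-ASA against Ad-OSCAR, 157 kept direction and side. With library totals only, 4 genes passed in place of 2, since Cnmd (-0.32) and Matn4 (-0.28) joined. Over all 15362 genes, lower calls then numbered 2523 in place of 1134, and higher calls 1058 in place of 1598. The median log2 fold change was -0.075 in place of -0.004. With limma on TPM, Acan no longer passed (0.29 and 0.26) and Cnmd did (-0.29 and -0.27), so the 2 genes were Comp and Cnmd. Over all genes, 1439 were then lower and 560 higher with 0.1 TPM added, and 1487 and 562 with 1 TPM. The cause was not tested. Directions turned in 13 refits, none of which passed the threshold: Hapln1 was 0.0037 with RLE scaling, 0.0052 with DESeq2 and -0.024 to 0.039 over cultures left out; Hapln3 was -0.18 and -0.091 with limma on TPM; and with cultures left out Matn1 ran from -0.30 to 0.00066, Matn3 from -0.15 to 0.38 and Ucma from -0.055 to 0.27. The summed level of Ad-OSCAR against Control was -4.62 with FPKM in place of TPM and -4.75 to -4.64 with cultures left out. The number of genes apart from Acan in ratio ran from 7 to 9 against Control and from 4 to 6 with 5-ASA. Genes with few counts after OSCAR, such as Snorc and Matn3, were limited by depth.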
